A study of Mus musculus with 12 samples.

Results

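Itaconate is made from an intermediate of the TCA cycle, and the expression of 9 mouse genes on that route was followed here in cultured macrophages. The genes were chosen by name from the 43278 gene symbols of a bulk RNA sequencing table. They are *Irg1*, which makes itaconate, the TCA cycle and isocitrate dehydrogenase genes *Cs*, *Idh1*, *Idh2*, *Idh3a*, *Ogdh*, *Fh1* and *Mdh2*, and *Slc25a1*, the citrate carrier of the mitochondrial inner membrane. All 9 passed the filter on low values in every comparison, and none fell under a value of 68 in any library.

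The cells were thioglycolate-elicited peritoneal Mφs (PMφs), recruited into the peritoneal cavity of wild-type mice and collected by lavage at day 4. According to the methods, cells of male and female C57BL/6J littermates aged 8 to 12 wk were pooled and then split among the groups, and adherent cells were used after 18 h. The 4 groups had 3 libraries each: untreated control PMφs, PMφs loaded for 24 h with 100 μg/ml human medium oxidized LDL (oxLDL), PMφs given 10 ng/ml ultrapure LPS, and PMφs given that LPS after the same oxLDL loading (oxLDL+LPS). LPS is the bacterial lipopolysaccharide sensed by TLR4, and how long it was given is not stated for these libraries. A replicate is a pool of animals and not 1 mouse, so p values of unpaired fits measure the spread between pools. Where the replicate number enters a fit as a block, p values measure how a difference within a pool varies from pool to pool. Values are the deposited normalized counts, which are reads per gene divided by 1 factor per library and rounded.

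The libraries summed to 17152972 to 17709731 in the control group, 17440329 to 17444102 with oxLDL, 22590678 to 26384551 with LPS and 22071853 to 23346854 with both, from 16.73 to 26.18 M implied reads. The 7 macrophage markers summed to 230743 or more in every library, whereas 4 of 6 T cell markers (*Cd3e*, *Cd3d*, *Cd3g* and *Cd8a*), 4 of 6 neutrophil markers (*S100a9*, *Ly6g*, *Ngp* and *Retnlg*) and 2 of 4 eosinophil markers (*Prg2* and *Epx*) were at 3 or less in all 12. Other markers of these lists moved with LPS, with *Lck* at 16 to 18 in control and 102 to 234 in LPS libraries, *S100a8* at 31 to 37 and 74 to 178, *Cxcr2* at 38 to 43 and 1 to 2, and *Siglecf* at 315 to 383 and 99 to 124. B cell markers summed to 39 to 86 and dendritic cell markers to 51 to 101 over the 12 libraries, with 0 markers at 3 or less in all. Mast cell markers summed to 34 to 112, with only *Mcpt4* at 3 or less in all. Markers of large peritoneal macrophages summed to 417, 597 and 330 in control libraries and 881, 639 and 534 with LPS. The 7 markers of mesothelial cells and fibroblasts differed by replicate number. They summed to 22748, 15911 and 5012 in control replicates 1, 2 and 3, 18490, 13228 and 5274 with oxLDL, 27474, 13278 and 5160 with LPS and 15612, 14509 and 4419 with both. Replicate 3 was the lowest in every group, while *Dcn* of this list was higher with LPS in each pair (924, 801 and 330 against 1895, 1074 and 555). The part of these markers in the values of the 9 genes was not tested. LPS raised *Tnf* from 61 to 68 in control libraries to 36687 to 85240, and oxLDL+LPS replicate 2 stood apart in *Hmox1*, with 12622 against 55988 and 43842 in its group. In bulk RNA, fewer cells of a type and less RNA per cell cannot be told apart.

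The TCA cycle joins acetyl-CoA to oxaloacetate to make citrate, turns citrate over cis-aconitate into isocitrate, and oxidizes that by way of α-ketoglutarate, succinate, fumarate and malate back to oxaloacetate. In macrophages activated through TLR4 the cycle is known for its rewiring: cis-aconitate is decarboxylated to itaconate, which inhibits succinate dehydrogenase, and citrate leaves the mitochondrion to supply cytosolic acetyl-CoA. *Irg1*, now also called *Acod1*, encodes the mitochondrial decarboxylase that makes itaconate.

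The stretch just upstream of *Irg1* is shown because this gene had the widest change of the 9. *Irg1* lies at chr14:103046977-103056573 on the plus strand of GRCm38 in the GENCODE annotation, and no exon of another gene overlaps its exons on either strand. The RefSeq promoter windows (GRCm38.p6), which run from 250 bases before to 50 after a start, matched 8 of the 9 members, all but *Idh3a*. The 215 bases at chr14:103046762-103046976 are written 5′ to 3′ on the plus strand, with the NF-κB site core GGANNTTCC in capitals.
Irg1: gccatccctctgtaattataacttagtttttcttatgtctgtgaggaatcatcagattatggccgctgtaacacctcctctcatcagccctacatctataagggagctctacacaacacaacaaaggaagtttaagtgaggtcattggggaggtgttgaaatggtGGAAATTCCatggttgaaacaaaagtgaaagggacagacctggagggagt
The capitals lie 85 to 77 bases before the RefSeq start. Their 9 letters match the core on both strands, and 4.26% of the 32851 windows held such a match on either strand. Among the other members only *Idh1* had 1, at 146 to 138 bases before the start in the second of its 2 windows. The interferon-stimulated response element core GAAANNGAA, in 8.56% of windows, was in none of the matched members' windows. Nor was the antioxidant response element core TGACNNNGC, in 12.4% of windows. The hypoxia response element core ACGTG, in 19.6% of windows, lay in the *Irg1* window 18 to 14 bases before the start, past the printed bases. Windows of *Ogdh* and *Slc25a1* held it too. The C/EBP site core TTGCNNAA, in 10.8% of windows, was found only for *Ogdh*. These matches describe letters and not binding.

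LPS took *Irg1* from the lowest transcript of the 9 members to one of the most abundant of the table. Its normalized counts were 88, 114 and 69 in control libraries 1, 2 and 3, and 139538, 122135 and 181023 with LPS. They were 68, 85 and 73 with oxLDL alone and 117526, 117803 and 145830 with oxLDL and LPS. Every library with LPS lay more than 3 orders of magnitude above every library without it. The log2 difference was 10.67 ± 0.21 (SE, n = 3 against 3; limma, adjusted p = 7.29e-08), or 1627-fold, without oxLDL and 10.70 ± 0.12 (adjusted p = 2.12e-08), or 1663-fold, with oxLDL. *Irg1* was the 9th widest change of 13006 genes in the first comparison. It held 0.000390 to 0.000658% of a library without LPS and 0.506 to 0.687% with it, and its rank by value went from between 9117 and 9960 to between 10 and 14.

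**Figure D1:**
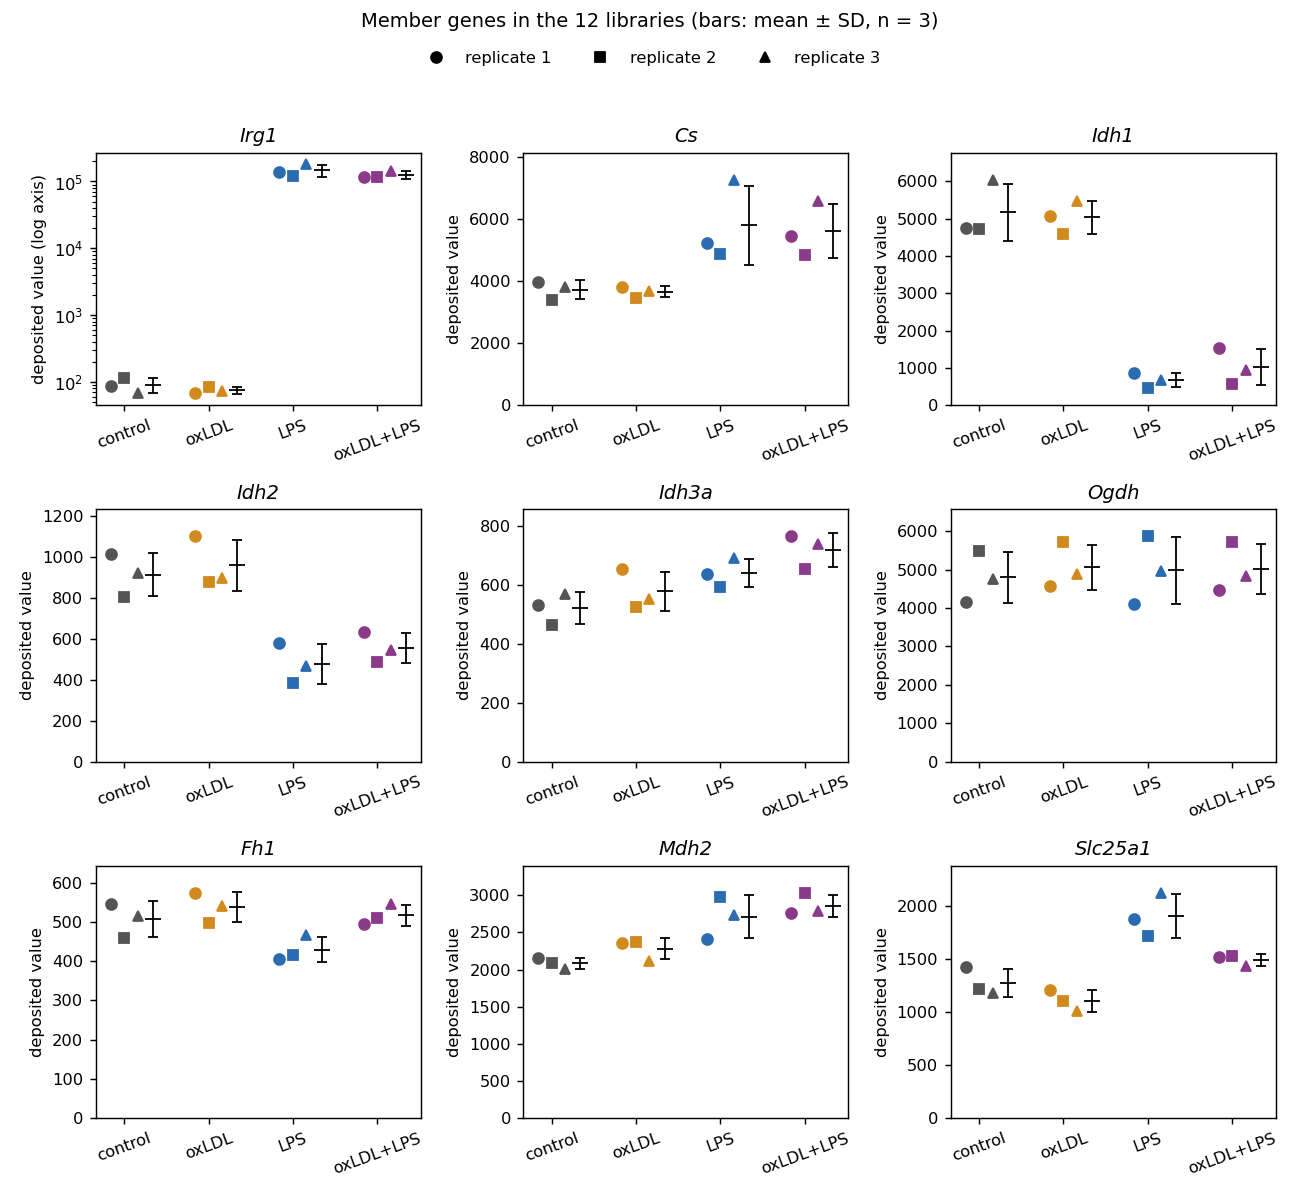
Normalized counts of the 9 genes (vertical axes; logarithmic for Irg1, from 0 for the others) in the 4 groups (horizontal axes), with a symbol for each replicate and the mean ± SD of 3 beside it. Irg1 lies at 68 to 114 in the 6 libraries without LPS and at 117526 to 181023 in the 6 with it, Idh1 and Idh2 fall with LPS, and Ogdh keeps the same order of replicates in every group.

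Per kilobase of exon, with all annotated exons of a gene joined, the order of the members changed with LPS. In control PMφs *Idh1* led with 1864 ± 273 normalized counts per kilobase (SD, n = 3), then *Ogdh* with 880 ± 122. *Cs* (646 ± 52.6), *Slc25a1* (591 ± 60.1) and *Mdh2* (585 ± 22.2) did not differ beyond their spread and were followed by *Idh2* (353 ± 40.6), *Fh1* (149 ± 13.3), *Idh3a* (103 ± 10.8) and *Irg1* (34.4 ± 8.61). With LPS *Irg1* came first at 56258 ± 11534 per kilobase. *Cs* (1004 ± 223), *Ogdh* (913 ± 161) and *Slc25a1* (883 ± 95.3) stood next within their spread of each other, *Mdh2* reached 762 ± 79.6, and *Idh1* had dropped to 242 ± 71.1, near *Idh2* at 185 ± 38.2. *Fh1* and *Idh3a* were level at 127 ± 9.48 and 126 ± 9.58. Within a library, where no scaling enters, *Irg1* per kilobase was 0.0399 to 0.0739 times *Cs* in the control libraries and 54.8 to 58.6 times *Cs* with LPS.

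Of the 9 members, 5 were higher and 2 lower with LPS in PMφs without oxLDL, where 31.4% of the 13006 genes tested were called higher and 30.3% lower. In PMφs with accumulated oxLDL, again 5 were higher and 2 lower, against 28.1% and 26.3% of 12883 genes. The median log2 difference over the members was 0.30 without oxLDL and 0.32 with it, and over all genes tested it was −0.00069 and −0.018. Because LPS libraries have larger totals on the authors' scale, dividing each library by its total instead moves the median of all genes to −0.48 without oxLDL and −0.41 with it. On that scale *Irg1* was still called higher and *Idh1* and *Idh2* lower, *Cs* and *Slc25a1* were no longer called, *Idh3a* and *Mdh2* turned to uncalled lower values, and *Ogdh* and *Fh1* were called lower, so that 1 member was higher and 4 lower in each comparison. On the same scale 16.8% of all genes were called higher and 55.8% lower without oxLDL, and 15.8% and 51.7% with it. Median-of-ratios rescaling left the median of all genes at 0.0012 without oxLDL and −0.015 with it, and *Cs* and *Slc25a1* kept their calls. It hardly moved the medians of the deposited scale, so those kept calls are not a separate check against the equal library totals.

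The isocitrate dehydrogenases did not move together. *Idh1*, the cytosolic and peroxisomal NADP-dependent enzyme, had 4746, 4710 and 6040 normalized counts in the control libraries and 865, 471 and 678 with LPS. With oxLDL it had 5057, 4581 and 5465, and with oxLDL and LPS 1535, 574 and 933. The groups with and without LPS were far apart, and the first library with both treatments was the highest of those given LPS. *Idh1* fell by 2.98 ± 0.22 on the log2 scale without oxLDL (adjusted p = 2.00e-05), 7.87-fold, and fell by 2.42 ± 0.32 with it (adjusted p = 6.79e-04), 5.36-fold.

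*Idh2*, the mitochondrial NADP-dependent enzyme, had 1016, 806 and 919 normalized counts in control libraries, 581, 384 and 469 with LPS, 1100, 875 and 899 with oxLDL and 634, 487 and 544 with both. All 6 libraries with LPS lay under all 6 without it. It fell by 0.95 ± 0.17 on the log2 scale (adjusted p = 0.00194) without oxLDL and by 0.79 ± 0.14 (adjusted p = 0.00258) with it. Per kilobase, *Idh1* stood at 4.36, 5.46 and 6.14 times *Idh2* in the control libraries and at 1.39, 1.15 and 1.35 times with LPS. The same ratio was 4.29, 4.89 and 5.68 with oxLDL and 2.26, 1.10 and 1.60 with both. The lead of the *Idh1* transcript over *Idh2* was thus smaller in every library with LPS than in any without it.

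*Idh3a*, the catalytic subunit of the NAD-dependent enzyme that works inside the cycle, had 533, 463 and 571 normalized counts in control libraries and 638, 594 and 691 with LPS. It had 655, 527 and 554 with oxLDL and 766, 654 and 740 with both. The control and LPS libraries did not overlap, whereas the oxLDL groups met at 654 and 655. It was higher by 0.30 ± 0.12 on the log2 scale (adjusted p = 0.0617) and, with oxLDL, by 0.32 ± 0.12 (adjusted p = 0.0575). The first call was lost without control replicate 1 (adjusted p = 0.115) or 2 (0.197) or LPS replicate 1 (0.101) or 3 (0.165), and the second without oxLDL replicate 2 (0.176) or 3 (0.152) or oxLDL+LPS replicate 1 (0.138) or 3 (0.143).

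The genes for making citrate, restoring oxaloacetate and exporting citrate were modestly higher with LPS on the deposited scale, although with equal library totals none was called and *Mdh2* turned to lower values. *Cs*, citrate synthase, had 3991, 3397 and 3806 normalized counts in control libraries and 5247, 4890 and 7276 with LPS. It had 3828, 3470 and 3689 with oxLDL and 5451, 4837 and 6579 with both. The lowest library with LPS lay over the highest without it, and replicate 3 was the highest in both LPS groups. *Cs* rose by 0.62 ± 0.16 on the log2 scale, 1.54-fold (adjusted p = 0.0117), and by 0.61 ± 0.12, 1.52-fold, with oxLDL (adjusted p = 0.00526).

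*Slc25a1*, which carries citrate out of mitochondria in exchange for malate, had 1427, 1223 and 1185 normalized counts in control libraries and 1885, 1718 and 2128 with LPS. It had 1209, 1105 and 1009 with oxLDL and 1523, 1530 and 1434 with both. LPS libraries were higher than their counterparts with no overlap in either setting. The oxLDL+LPS libraries lay under those with LPS alone, whereas the oxLDL and control libraries overlapped. The log2 difference with LPS was 0.58 ± 0.12, 1.49-fold (adjusted p = 0.00383), without oxLDL and 0.44 ± 0.091, 1.35-fold (adjusted p = 0.00633), with it. *Mdh2*, mitochondrial malate dehydrogenase, which restores oxaloacetate, had 2161, 2085 and 2003 in control libraries, 2418, 2983 and 2741 with LPS, 2360, 2367 and 2116 with oxLDL and 2768, 3032 and 2784 with both. It rose by 0.38 ± 0.10 on the log2 scale (adjusted p = 0.0142) without oxLDL and by 0.33 ± 0.083 (adjusted p = 0.0149) with oxLDL.

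*Ogdh* and *Fh1* were not called for LPS. *Ogdh*, the E1 subunit of the α-ketoglutarate dehydrogenase complex, had 4165, 5490 and 4748 normalized counts in control libraries, 4104, 5864 and 4974 with LPS, 4566, 5715 and 4896 with oxLDL and 4466, 5723 and 4841 with both. Replicate 2 was the highest and replicate 1 the lowest in every group. Its LPS difference of 0.047 had a 95% interval of −0.32 to 0.41, and −0.015 with oxLDL had one of −0.31 to 0.28. With the replicate number as a block the intervals were −0.14 to 0.24 and −0.18 to 0.15, whereas with equal library totals the differences were −0.44 (adjusted p = 0.0293) and −0.41 (adjusted p = 0.0215). *Fh1*, fumarate hydratase, had 547, 458 and 516 in control libraries and 406, 416 and 466 with LPS, or 574, 498 and 540 with oxLDL and 496, 509 and 547 with both. Its difference was −0.24 ± 0.11 (adjusted p = 0.112) without oxLDL and −0.053 ± 0.097 (adjusted p = 0.686) with it. With the replicate number as a block, the first of these passed (adjusted p = 0.0889), which makes 3 members lower in a fit that called 34.1% of genes lower.

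**Figure D2:**
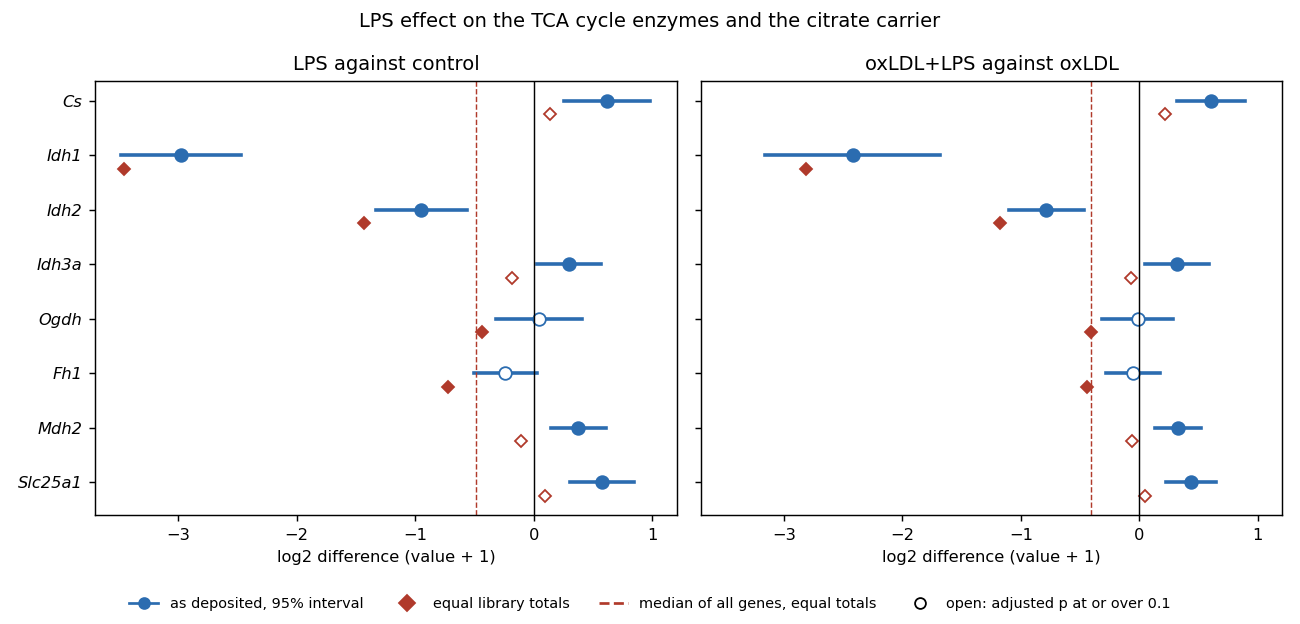
Log2 difference of normalized count plus 1 (horizontal axes) for 8 members (vertical axis) with LPS, without oxLDL at left and with oxLDL at right. Circles with 95% intervals use the deposited scale and diamonds equal library totals, filled where the adjusted p is under 0.1. Idh1 and Idh2 stay filled and under 0 on both scales, Cs and Slc25a1 lose their fill, and Idh3a and Mdh2 move from over to under 0 as the median of all genes (dashed) moves to −0.48 and −0.41.

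Subunits of the same enzymes did not all follow the members. Of 12 other TCA cycle subunits, 3 were called higher and 2 lower with LPS without oxLDL (31.4% and 30.3% of all genes), with a median of −0.050, and with equal library totals 1 was higher and 10 were lower (16.8% and 55.8% of all genes). *Idh3g*, a regulatory subunit of the enzyme that holds Idh3a, was lower (868, 880 and 914 in control libraries, 614, 677 and 656 with LPS; −0.45 ± 0.087, adjusted p = 0.00328), while *Idh3b* (−0.12 ± 0.13) was not called. *Dld*, the E3 subunit that the *Ogdh* complex shares with pyruvate dehydrogenase, rose from 1515, 1302 and 1619 to 2345, 2819 and 2972 (0.87 ± 0.13, adjusted p = 6.95e-04), and *Dlst*, its E2 subunit, rose by 0.43 ± 0.12 (adjusted p = 0.0169). *Sdha*, *Sdhb*, *Sdhc* and *Sdhd*, the subunits of the succinate dehydrogenase that itaconate inhibits, lay between −0.13 and −0.019 and were not called. With equal library totals, where the median of all genes was −0.48, these 4 lay between −0.62 and −0.50 and *Idh3b* at −0.61, and all 5 were called lower. *Suclg2*, the GTP-forming subunit of succinyl-CoA ligase, fell by 1.08 ± 0.18 (adjusted p = 0.00168).

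Over 55 tested genes of 57 in the surrounding pathways, 15 were higher and 21 lower with LPS without oxLDL, and 14 and 19 with it. Over all genes, 31.4% were called higher and 30.3% lower without oxLDL, and 28.1% and 26.3% with it. With equal library totals the split was 7 and 41, and 7 and 34, on a scale where 16.8% of all genes were called higher and 55.8% lower without oxLDL, and 15.8% and 51.7% with it. *Me3* and *Pdk4* were too low to test. Among 7 genes tied to itaconate transport and breakdown, 4 were higher and 3 lower without oxLDL, and 4 and 1 with it. The single genes that follow are given for LPS without oxLDL. *Rab32*, a small GTPase linked to itaconate delivery into vacuoles, rose from 857, 1064 and 1156 to 6423, 8650 and 8588 normalized counts (2.94 ± 0.16, adjusted p = 4.24e-06), and its partner kinase *Lrrk2* rose by 2.39 ± 0.31 (adjusted p = 3.79e-04). *Slc13a3*, a plasma membrane dicarboxylate transporter, went from 4, 7 and 5 to 99, 25 and 66. *Auh*, a mitochondrial enzyme in itaconate breakdown, fell by 0.88 ± 0.13 (adjusted p = 8.40e-04).

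The counts of the next lists are also for LPS without oxLDL, where 31.4% of all genes were called higher and 30.3% lower. Of 12 genes that supply glutamate, aspartate and fumarate to the cycle, 3 were higher and 6 lower. *Slc25a22*, a mitochondrial glutamate carrier, rose from 565, 464 and 583 to 4304, 4199 and 5606 (3.12 ± 0.14, adjusted p = 1.82e-06), and *Ass1*, argininosuccinate synthase, rose by 3.60 ± 0.17 (adjusted p = 2.20e-06). The 2 aspartate-glutamate carriers went apart, with *Slc25a12* higher by 1.15 ± 0.13 (adjusted p = 2.24e-04) and *Slc25a13* lower by 1.16 ± 0.13 (adjusted p = 1.93e-04). Of 13 tested genes of pyruvate entry, 3 were higher and 4 lower, and *Pdk2*, a kinase that switches off pyruvate dehydrogenase, fell from 278, 316 and 298 to 37, 22 and 21 (−3.48 ± 0.24, adjusted p = 1.49e-05). Of 5 tested cytosolic counterparts and malic enzymes, *Aco1*, *Mdh1* and *Me2* were lower and *Acly*, which splits exported citrate, was higher by 0.31 ± 0.096 (adjusted p = 0.0288). Of the 36 surrounding genes called for LPS without oxLDL, 28 kept call and direction with equal library totals. *Acly* (−0.18, adjusted p = 0.0614), *Sucla2* (−0.28, adjusted p = 0.0183) and *Dlat* (−0.27, adjusted p = 0.0185) were called lower in place of higher, and *Dlst*, *Mpc1*, *Pdk3*, *Slc25a10* and *Sdhaf2* lost their calls. Of 6 genes for succinate dehydrogenase assembly and 2-hydroxyglutarate removal, 1 was higher and 3 were lower, among them *D2hgdh*, which oxidizes D-2-hydroxyglutarate to the product of Idh1 (189, 232 and 208 against 58, 69 and 71).

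**Figure D3:**
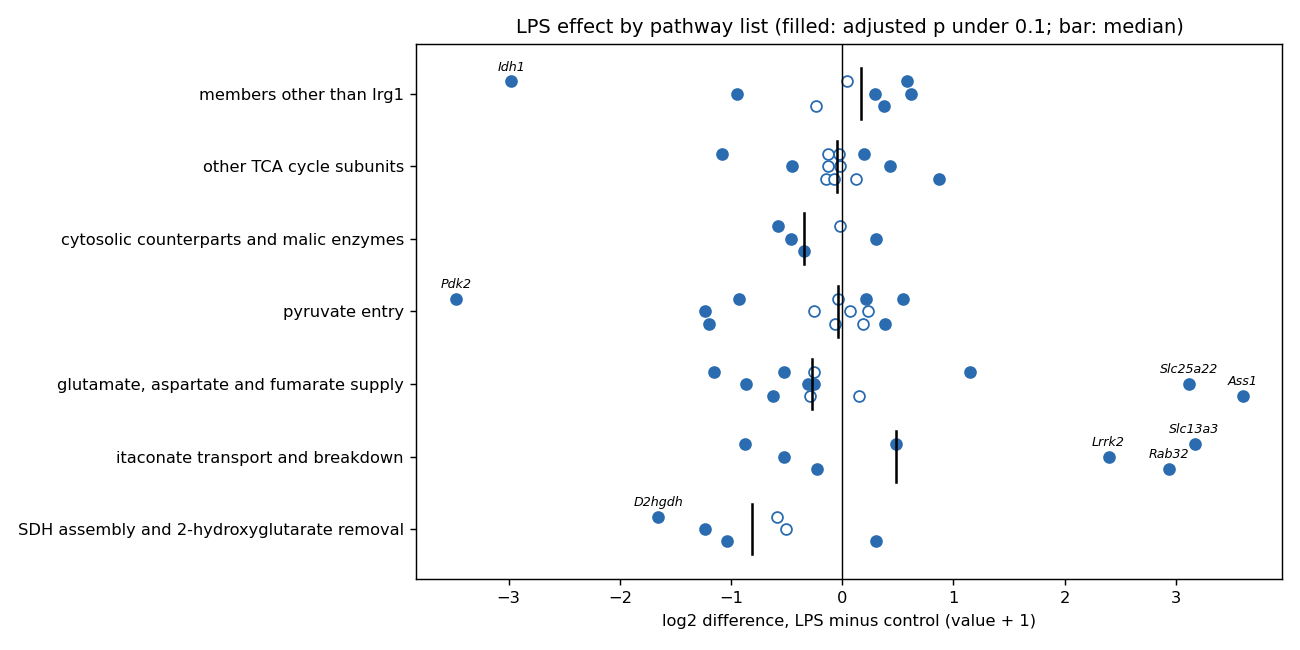
Log2 difference of normalized count plus 1 between LPS and control PMφs (horizontal axis) for the members other than Irg1 and 6 lists of surrounding genes (vertical axis). Each circle is a gene, filled where the adjusted p is under 0.1, and the bar is the median of its list. Idh1 lies beyond −2, as does Pdk2 of pyruvate entry, while Slc25a22, Ass1, Slc13a3, Rab32 and Lrrk2 lie over 2.

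The next comparisons asked whether accumulated oxLDL alters these transcripts, before and after LPS. Without LPS, limma called 0 of 9 members and 0% of the 12734 genes tested, and 0 members and 379 genes had an unadjusted p under 0.05. The libraries of 1 replicate number deviate together, as cells of 1 pool would, and with the number as a block 1 member was lower and 0 were higher, where 2.91% of genes were called lower and 1.79% higher. That member was *Slc25a1*, at 1427, 1223 and 1185 normalized counts in control libraries and 1209, 1105 and 1009 with oxLDL. The oxLDL library was lower in each of the 3 pairs, by 0.24, 0.15 and 0.23 on the log2 scale, although the groups overlap. Its difference was −0.21 ± 0.047 with the block (adjusted p = 0.0478), 1.15-fold lower, and the call was lost without number 1 (adjusted p = 0.277) or 2 (0.200). In the same fit 2 of 54 surrounding genes were lower and 0 higher, beside those same shares of all genes. *Acly*, the next gene on the route of exported citrate, was lower by 0.25 ± 0.044 (adjusted p = 0.0159), and its call was lost without number 1 (adjusted p = 0.140) or 2 (0.122). The other call was in pyruvate entry, where *Pdp2* differed by −0.39, −0.46 and −0.33 in the 3 pairs. Without the block, *Irg1* differed by −0.24 with an interval of −0.73 to 0.26, and *Idh1* by −0.031 with one of −0.30 to 0.24. With the block these intervals were −0.55 to 0.083 and −0.14 to 0.082, and neither gene was called. *Idh3a* (0.15), *Mdh2* (0.13), *Fh1* (0.085), *Ogdh* (0.078), *Idh2* (0.067) and *Cs* (−0.025) were not called.

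In PMφs given LPS, oxLDL again gave 0 called members and 0% of 12769 genes, with 2 members (*Slc25a1* and *Fh1*) and 890 genes at an unadjusted p under 0.05. With the replicate block 2 members were higher and 1 lower, beside 4.41% of genes higher and 8.75% lower. *Idh1* was higher with oxLDL in each pair, at 1535 against 865, 574 against 471 and 933 against 678. The groups overlap, the first pair differs the most, and in that pair the mesothelial and fibroblast markers summed to 15612 against 27474, whose part in the difference was not tested. The blocked difference was 0.52 ± 0.10 (adjusted p = 0.0217), 1.44-fold. The groups averaged 1014 ± 486 (SD) with oxLDL and 671 ± 197 without it, both well under the 5165 ± 758 of control PMφs.

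*Fh1* was 496, 509 and 547 with oxLDL and LPS against 406, 416 and 466 with LPS, with no overlap and differences of 0.29, 0.29 and 0.23 by number. It was higher by 0.27 ± 0.082 (adjusted p = 0.0824). *Slc25a1* was 1523, 1530 and 1434 against 1885, 1718 and 2128, again with no overlap, and lower by 0.35 ± 0.088 (adjusted p = 0.0477), 1.27-fold. These 3 blocked calls were lost without number 1 (adjusted p = 0.208, 0.357 and 0.258 for *Idh1*, *Fh1* and *Slc25a1*) or 3 (0.369, 0.380 and 0.388). Without number 2, which holds the library that stands apart in *Hmox1*, *Idh1* (adjusted p = 1.31e-08) and *Slc25a1* (1.17e-04) were called and *Fh1* (0.106) was not. *Irg1* was lower with oxLDL in each pair, by 0.25, 0.052 and 0.31, and was not called (−0.20, interval −0.80 to 0.39 without the block; adjusted p = 0.569 with it).

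**Figure D4:**
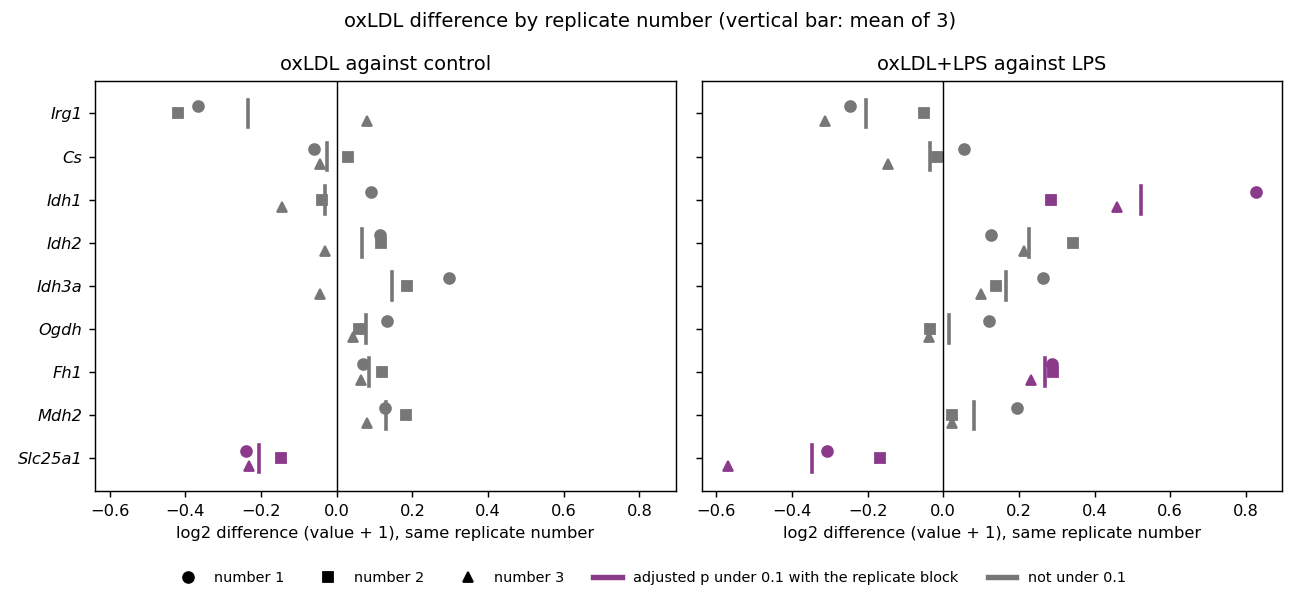
Log2 difference of normalized count plus 1 between libraries with and without oxLDL of the same replicate number (horizontal axes) for the 9 genes (vertical axis), without LPS at left and with LPS at right; bars are means of 3, and purple marks an adjusted p under 0.1 with the block. Slc25a1 lies under 0 in all 6 pairs, and Fh1 and Mdh2 lie over 0 in all 6. Idh1, Idh2 and Idh3a lie over 0 in all 3 pairs only with LPS, and Ogdh only without it. Irg1 lies under 0 in all 3 pairs only with LPS. Slc25a1 is purple in both panels, and Idh1 and Fh1 only with LPS. How many of all genes keep the same sign in all 3 pairs was not counted.

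Among surrounding genes in LPS-treated PMφs, the block called 4 higher and 3 lower of 55 with oxLDL, beside 4.41% of all genes higher and 8.75% lower. *Me1*, cytosolic malic enzyme, was 211, 74 and 182 against 142, 56 and 62 (0.83 ± 0.21, adjusted p = 0.0491), and *Pcx*, pyruvate carboxylase, was 154, 36 and 148 against 47, 33 and 41 (1.21 ± 0.30, adjusted p = 0.0473). In *Pcx* the second library with both treatments matched the LPS group while the others did not. *Ass1* (0.59 ± 0.11, adjusted p = 0.0180) and *Gpt2* (0.43 ± 0.11, adjusted p = 0.0506) were also higher, and *Lrrk2* (−0.47 ± 0.076, adjusted p = 0.0111) and *Pdp2* (−0.39 ± 0.11, adjusted p = 0.0616) were among those lower. None of the 7 calls was kept without number 1 or without number 3, where the same fits called 70 and 0 of all genes, and all 7 were kept without number 2.

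Whether the LPS effect differed with oxLDL was tested as an interaction over all 12 libraries. limma called 0 of 9 members and 0% of 13465 genes, without the block and with it, also 0%. At an unadjusted p under 0.05 there were 0 members in both fits and 416 and 967 genes. Estimates on the log2 scale are given for the members called in a blocked oxLDL comparison, with 95% intervals of the fit without the block. They were 0.55 for *Idh1* (−0.38 to 1.49), 0.18 for *Fh1* (−0.12 to 0.49) and −0.14 for *Slc25a1* (−0.46 to 0.18). With the block the intervals were −0.11 to 1.22 for *Idh1*, −0.077 to 0.45 for *Fh1* and −0.43 to 0.15 for *Slc25a1*. The different oxLDL calls with and without LPS are therefore not shown to differ from each other.

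The genes whose log2 values most resembled those of *Irg1* over the 12 libraries were *Ifit2*, *Cmpk2*, *Mx1*, *Rsad2* and *Acsl1*, with Pearson's r from 0.9995 to 0.9997. The libraries fall into 6 without and 6 with LPS, and that gap sets these values. Within the 6 LPS libraries r lay between 0.80 and 0.96, and within the other 6 between 0.59 and 0.83. The first 4 are interferon-stimulated genes and *Acsl1* is an acyl-CoA synthetase. *Ifit2* averaged 107 normalized counts in control PMφs and 111952 with LPS, *Acsl1* 1237 and 6923.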

How the data were processed

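RNA of 12 cultures of PMφs (4 groups of 3) was made into directional poly(A) libraries and read as 150-bp paired ends. The authors used Trimmomatic 0.32 for trimming, STAR 2.5.1b for alignment to GRCm38 (mm10) and featureCounts with GENCODE for counting, and whether strand was used is not given in the sources used here. The deposited signal holds integers whose spacing is that of read counts scaled by a single factor for every column and then rounded by the authors. Reads were not recovered from it, so tests for raw counts were not used. A spreadsheet turned 25 symbols into dates, at most 0.165% of a library.

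Groups were compared with limma 3.58.1 (R 4.3.3; lmFit, eBayes with a variance trend) on log2 of the value plus 1, over the whole table, with the 6 libraries of a comparison or all 12 for the interaction. Genes were tested where 3 or more of the fitted libraries held a value of 10 or more, and were called at a Benjamini-Hochberg adjusted p under 0.1. Differences are on that log2 scale, intervals are 95%, and the procedure was tested on simulated data. Deviations from group means correlated between libraries of the same replicate number by 0.27 to 0.66 and the methods describe divided pools, so the numbers pair the libraries, and blocked values are given where a call changes. Gene models and positions come from GENCODE vM21 and promoter windows from RefSeq, both on GRCm38. Kilobases of exon are the union of a gene's exons in that release, while the authors counted on an earlier GENCODE release. Orders and ratios between genes depend on these lengths, and the SD given with them does not cover that. The surrounding genes named are those called, up to the 20 with the smallest p per comparison, defining genes of the cycle, and the 5 closest in pattern to *Irg1*. Single values of some surrounding genes are not reported here. The 9 members and all lists were chosen with earlier results of these data known. Alternatives were a block, other scalings, pseudocounts, filters and thresholds, and leaving out libraries. Leaving a number out of the blocked fits for surrounding genes was added after seeing the data.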

Additional observations from a re-analysis of the deposited data

How the results depend on the processing

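Counting 9 members per comparison, the LPS calls stayed between 6 and 7 with any 1 library left out and were 8 and 7 with the replicate block. Over all genes, leaving out a library gave 6866 to 7678 calls without oxLDL and 5826 to 6687 with it. The blocked LPS fits called 68.7% and 63.4% of all genes. The block raised the oxLDL count from 0 to 1 without LPS and from 0 to 3 with LPS, beside 4.7% and 13.2% of all genes. In blocked fits the oxLDL count was 3 without number 3 in cells without LPS, where 1283 of 12434 genes were called. It was 2 without number 2 in cells with LPS, where 2945 of 12317 genes were called. It was 0 in each of the other fits that left out a number, where between 0 and 235 genes were called. A block joined to equal library totals, chosen after seeing the data, gave 1 and 5, the added members being *Idh2* and *Idh3a*. That setting called 705 of 12936 genes without LPS and 1619 of 12451 with it. Apart from *Fh1* for LPS without oxLDL and the calls for oxLDL given with them, the block changed no member's call. Equal library totals turned *Idh3a* (−0.19), *Ogdh* (−0.44) and *Mdh2* (−0.11) for LPS without oxLDL, *Idh3a* (−0.072) and *Mdh2* (−0.063) for LPS with oxLDL, and *Cs* (0.055, with or without the block) for oxLDL with LPS. Leaving out a number in blocked fits turned uncalled values of *Fh1* for LPS with oxLDL (0.025), *Idh1* for oxLDL without LPS (0.026), and *Ogdh* (−0.037) and *Cs* (0.020) for oxLDL with LPS. Leaving out a library turned other uncalled values. *Ogdh* ranged from −0.078 to 0.18 and from −0.12 to 0.076 for LPS without and with oxLDL. For oxLDL without LPS *Cs* ranged from −0.091 to 0.025, *Idh1* from −0.093 to 0.087, *Idh2* from −0.036 to 0.15 and *Ogdh* from −0.020 to 0.18. For oxLDL with LPS *Cs* ranged from −0.15 to 0.14, *Ogdh* from −0.12 to 0.14 and *Mdh2* from −0.00031 to 0.15. *Irg1*, *Idh1* and *Idh2* kept both LPS calls under every alternative run. *Mdh2* with oxLDL lost its call in the block without number 3 (adjusted p = 0.102). For *Fh1* and LPS without oxLDL, leaving out control replicate 2 (0.0854) or LPS replicate 3 (0.0864), or fitting all 12 libraries (0.0569), gave a call. The cause of these changes was not tested. With 3 pools a group, blocked fits that leave out a number rest on 2 pairs. Depth is known only as implied reads.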
